A study of Homo sapiens with 4 samples.

Results

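The genes described here encode the lysosome: its soluble hydrolases and their activators, proteins of its limiting membrane, the V-ATPase proton pump and the MiT/TFE transcription factors. The list named 55 genes by symbol and role. It was drawn up with earlier results of these data known, among them the rise of GAA, so the values of GAA are given as a known change and not as independent evidence. Of the 55 genes, 52 were among the 12912 genes of the count table. GALC, NEU1 and CLN3 were not analysed here. All 52 passed the filter on low counts, and each symbol had a single identifier in the table.

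The study asked what changes when VHL is put back into a renal carcinoma line. 786-O is an established human clear cell renal cell carcinoma line without functional VHL, the ubiquitin ligase subunit that marks hypoxia-inducible factors for destruction. The 786-O-VHL subline carried HA-tagged human VHL from a retroviral vector and 786-O-Ctrl was its control, and both also carried the triple reporter (TR), a fusion of thymidine kinase, GFP and luciferase. Both sublines were grown in the same serum-containing medium, and total RNA was sequenced from 2 libraries of each. Each group was thus 1 subline with duplicate RNA extractions, so the p-values below measure only the spread between these libraries.

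The lysosome is the compartment in which sugars, lipids and proteins are broken down at acid pH. The V-ATPase has a membrane sector, V0, that carries protons and a cytosolic sector, V1, that burns ATP, and its activity sets the pH at which the hydrolases work. Most soluble hydrolases receive a mannose-6-phosphate tag in the Golgi and are delivered by receptors for that tag. TFEB, TFE3 and MITF bind a palindromic element, the CLEAR element, in the promoters of many lysosomal genes, and mTORC1 on the lysosomal surface holds them in the cytosol when nutrients are plentiful. Inherited loss of single members causes storage diseases, among them Pompe disease for GAA, Fabry disease for GLA and Tay-Sachs disease for HEXA.

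Because the CLEAR element is the best known feature that lysosomal promoters share, the promoter letters are shown first. RefSeq promoter windows (GRCh38.p14, 250 bases before to 50 after each gene's start) were found for 38 of the 52 genes. The other 14 were ARSA, ASAH1, ATP6V0E1, ATP6V1A, ATP6V1B2, ATP6V1C1, ATP6V1H, CTSB, HEXA, LAMP2, MANBA, NAGLU, PSAP and SGSH. The core of the element was searched as TCACGTGA, which reads the same on both strands, contains the shorter E-box CACGTG and through it ACGTG, the core letters of the hypoxia response element. TCACGTGA was in 6 of the 38 windows, or 15.8%, against 1.04% of 27305 promoters of all genes and 1.94% of 9755 promoters of tested genes. The 6 stretches below hold each such site that ended before the annotated start, with the 8 letters in capitals, and are shown because they include the promoter of GAA, which had the largest increase of the 52 genes.

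GAA, chr17:80101484-80101576, plus strand: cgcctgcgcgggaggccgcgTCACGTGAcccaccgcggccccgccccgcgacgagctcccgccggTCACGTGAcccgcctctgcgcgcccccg
ATP6V1G1, chr9:114587690-114587737, plus strand: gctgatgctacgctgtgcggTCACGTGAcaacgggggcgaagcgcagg
ATP6V0D1, chr16:67481190-67481237, minus strand: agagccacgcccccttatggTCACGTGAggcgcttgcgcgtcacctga
CTSA, chr20:45891289-45891334, plus strand: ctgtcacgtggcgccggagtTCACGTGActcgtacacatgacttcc
LAMP1, chr13:113297190-113297237, plus strand: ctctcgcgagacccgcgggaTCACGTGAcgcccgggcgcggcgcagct
MCOLN1, chr19:7522562-7522623, plus strand: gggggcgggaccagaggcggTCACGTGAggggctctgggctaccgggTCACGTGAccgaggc

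GAA held 2 of these sites, 77 and 32 bases before the start, and MCOLN1 held 2, at 42 and 15 bases before it. LAMP1 also held 2, the printed one 29 bases before the start and another, not printed, that crosses the start. With windows for 73.1% of the genes, under the 80% set as the least for such a check, a comparison over the whole list is void. The shares are therefore descriptions of the windows found.

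The 4 libraries differed in depth by 7.89 times, from 2807779 counts in 786-O-VHL replicate 1 to 22141263 in the deeper 786-O-Ctrl library, with 15714166 in the shallower 786-O-Ctrl library and 16114120 in 786-O-VHL replicate 2. Within each group the 2 libraries differed by more than counting noise, with a chi-square per degree of freedom of 2.26 between the controls and 2.82 between the libraries with VHL, so they were kept as 2 libraries. Transcripts of VHL itself were at 42.9 and 43.9 CPM (counts scaled to library size) in the controls and at 178 and 163 CPM after its return, 1.96 higher on the log2 scale (FDR = 2.86e-19). All 8 renal epithelial markers were in the table and summed to between 1822 and 3163 CPM. Of 8 macrophage markers CD14 and CSF1R were in the table, with sums of 13.7 to 14.2 CPM in the controls and 2.67 to 4.41 CPM with VHL. PTPRC and the other macrophage markers were not analysed here. Of 8 fibroblast and endothelial markers COL1A1, LUM and PECAM1 were in the table, with sums of 7.38 to 9.84 CPM over all libraries.

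The lysosomal genes as a whole did not move in one direction. Levels are given as CPM scaled by TMM factors, and differences as log2 fold changes of 786-O-VHL over 786-O-Ctrl with the false discovery rate (FDR) of edgeR's quasi-likelihood test, Benjamini-Hochberg adjusted over 12335 genes. Of the 52 genes 18 were higher in 786-O-VHL at an FDR under 0.05, where 32.6% of all genes tested were higher. These 18 include GAA, whose rise was known beforehand. Another 18 were lower, where 31.9% of all genes were lower, and 16 did not pass. The share of 34.6% in each direction was near this background. In bulk RNA, fewer cells that express a gene and less of its RNA per cell cannot be told apart. The median log2 fold change was -0.01 over the 52 genes and 0.02 over all genes. Single genes ranged from -1.77 for GM2A to 1.93 for GAA.

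Large changes were likewise split between the directions. GAA, CTSH, SGSH and TFEB were more than 2-fold higher, where 10% of all genes were that much higher. GM2A, GLA, ARSB and LIPA were more than 2-fold lower, where 7.52% of all genes were that much lower. None of the 52 genes passed the limit of 4-fold at an FDR under 0.01 that the study used for single genes, which 4.46% of all genes passed. Both 786-O-VHL libraries lay above both 786-O-Ctrl libraries for 22 of the 52 genes, where this held for 40.8% of all genes. They lay below for 21, where this held for 39.2% of all genes.

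The balance between directions depended on the scaling. With library totals alone in place of TMM factors, the median of all genes moved by 0.13 on the log2 scale, and 26 of the 52 genes were higher and 14 lower. The share of called genes that were higher went from 50% to 65% among the 52 and from 50.5% to 62.1% among all genes. The median of the 52 genes less that of all genes was -0.02 under both scalings.

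**Figure D1:**
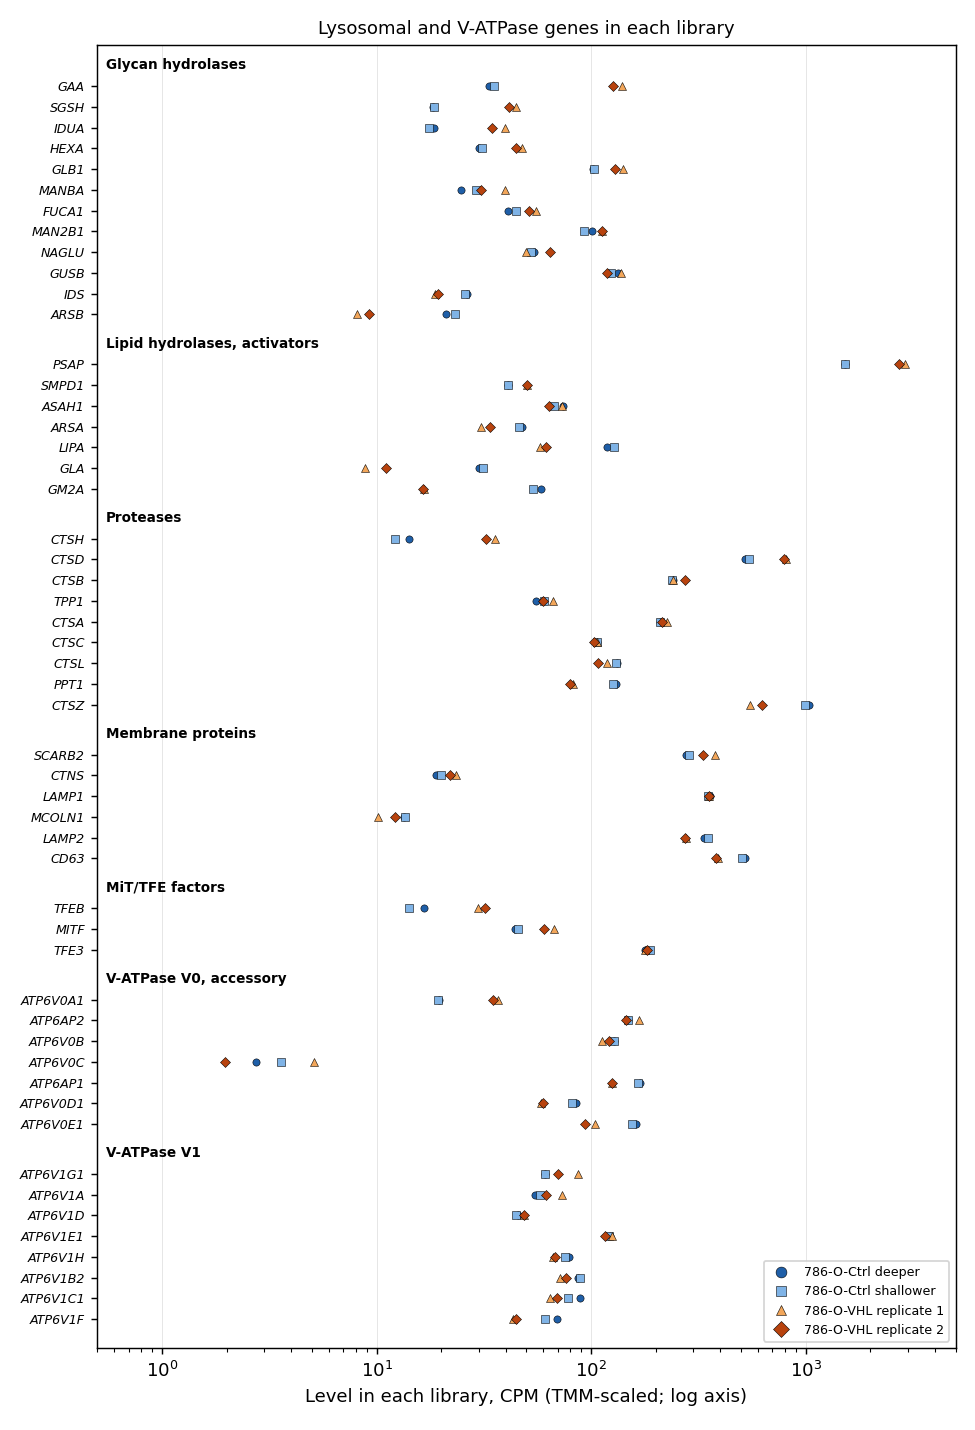
Level of each of the 52 genes in each of the 4 libraries, in TMM-scaled CPM on a log axis, with 1 marker for each library and the genes grouped by role. PSAP has the highest CPM of all, at 1532 and 1533 in the controls and 2907 and 2738 with VHL, and GAA shows the widest gap between the sublines among the higher genes, while the 4 markers of LAMP1 lie on top of each other.

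Among the enzymes that take sugars or sulfate off glycans and glycosaminoglycans, more genes rose than fell. The genes that fell, ARSB and IDS, encode sulfatases, as does SGSH, which rose. Of 12 measured, 8 were higher, 2 were lower and 2 did not pass (median log2 fold change 0.29), beside 32.6% higher and 31.9% lower of all genes. The 8 and the median include GAA, whose rise was known when the list was drawn up and is not independent evidence. DESeq2 called 5 higher, without MANBA, FUCA1 and MAN2B1, and library totals alone 9, each with 2 lower. The higher count was 6 to 8 with 1 library left out. CPM values of single genes are given below for the deeper and then the shallower 786-O-Ctrl library, followed by 786-O-VHL replicates 1 and 2.

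GAA encodes acid alpha-glucosidase, which breaks down glycogen in the lysosome (GRCh37, chromosome 17, 78075332 to 78093680, plus strand, ENSG00000171298.13). It was at 33.3, 35.3, 139 and 127 CPM. Both 786-O-VHL libraries were thus far above both 786-O-Ctrl libraries, 133 ± 8.81 against 34.3 ± 1.38 CPM (SD, n = 2). The difference was 3.82-fold, a log2 fold change of 1.93 (SE 0.0747, 95% interval 1.78 to 2.09, FDR = 1.27e-18). It exceeded the fold change of 96.9% of all genes tested. GAA overlapped no other annotated gene on either strand, and its call held without each library in turn, at 1.89 to 2.02. Its promoter carries the pair of TCACGTGA sites printed above.

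SGSH encodes sulfamidase, which removes sulfate from heparan sulfate. It was at 18.2, 18.6, 44.8 and 41.6 CPM, with no overlap between the groups and a log2 fold change of 1.20 (SE 0.106, FDR = 7.55e-11). SGSH lies 86835 bases from GAA on chromosome 17 (GRCh37, 78180515 to 78194722, minus strand). Its locus overlaps CARD14 (78143791 to 78189872) over much of its length and SLC26A11 (78193498 to 78227299) at one end, both on the other strand. CARD14 was at 0.617, 0.798, 1.36 and 1.54 CPM, and SLC26A11 at 2.28, 2.86, 11.2 and 13.7 CPM. Whether the counting used strand is not given in the sources used here, so reads of these genes and of SGSH cannot be told apart where they overlap.

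IDUA encodes alpha-L-iduronidase, which acts on heparan and dermatan sulfate. It was at 18.6, 17.5, 39.7 and 34.4 CPM, and both 786-O-VHL libraries were above both 786-O-Ctrl libraries. Its log2 fold change was 0.98 (SE 0.113, FDR = 1.58e-08). It overlaps SLC26A1 on the other strand, which was at 10.4, 8.31, 8.82 and 7.19 CPM. HEXA (0.58), GLB1 (0.37), MANBA (0.30), FUCA1 (0.29) and MAN2B1 (0.22) also rose on the log2 scale. These encode exoglycosidases that remove terminal N-acetylhexosamine, galactose, mannose and fucose residues. The last 3 of them lost their calls in some fits: MANBA without the deeper 786-O-Ctrl library (0.20, FDR = 0.299) or without 786-O-VHL replicate 1 (0.20, FDR = 0.113), FUCA1 without the deeper 786-O-Ctrl library (0.23, FDR = 0.142), and MAN2B1 without the shallower 786-O-Ctrl library (0.15, FDR = 0.247) or without 786-O-VHL replicate 2 (0.21, FDR = 0.0778).

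ARSB, the sulfatase that removes sulfate from dermatan and chondroitin sulfate, went the other way. It was at 21.1, 23.3, 8.14 and 9.26 CPM, so that both 786-O-VHL libraries were below both 786-O-Ctrl libraries. It fell by 1.29 on the log2 scale (SE 0.147, FDR = 1.16e-08). IDS, the sulfatase that acts before IDUA in the breakdown of heparan sulfate, was at 26.5, 25.9, 18.7 and 19.2 CPM and fell by 0.46 on the log2 scale (FDR = 0.0013). The consecutive enzymes IDS and IDUA therefore had calls in opposite directions. NAGLU (0.19, FDR = 0.0618) and GUSB (-0.05, FDR = 0.586) did not pass. NAGLU passed without 786-O-VHL replicate 1 (0.27, FDR = 0.00175) and was at -0.11 without 786-O-VHL replicate 2.

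The lipid hydrolases and their activator proteins had the lowest median among the role groups. Of 7 measured, 2 were higher (28.6%), 4 were lower (57.1%) and 1 did not pass, beside 32.6% higher and 31.9% lower of all genes. The log2 fold changes had a median of -0.51, and of -0.37 with equal counts of calls under library totals alone. The roles were assigned with earlier results known, and some enzymes fit either group. GLA (-1.53), placed here, removes a sugar from a lipid, and HEXA (0.58), placed with the glycan enzymes, acts with GM2A on a ganglioside. The contrast between the glycan and lipid groups therefore depends on the assignment.

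GM2A encodes the GM2 activator, which lifts ganglioside GM2 out of the membrane for its hydrolase. It was at 58.4, 53.9, 16.6 and 16.5 CPM, with both 786-O-VHL libraries far below. It fell by 1.77 on the log2 scale (SE 0.104, 95% interval -1.98 to -1.55, FDR = 1.49e-14), the largest decrease of the 52 genes. HEXA, the alpha subunit of the enzyme that GM2A serves, rose by contrast, from 30.5 ± 0.61 to 46.2 ± 1.88 CPM (SD, n = 2).

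GLA encodes alpha-galactosidase A, which removes terminal galactose from globotriaosylceramide. It was at 30.1, 31.4, 8.82 and 11.1 CPM and did not overlap between the groups. It fell by 1.53 on the log2 scale (SE 0.132, FDR = 5.22e-11), with 26 counts in 786-O-VHL replicate 1. Its locus overlaps RPL36A and RPL36A-HNRNPH2 on the other strand, and RPL36A was at 2.53 to 3.39 CPM in all libraries. How reads in such overlaps were counted is not given, so the low level of RPL36A is uncertain. Reads of these genes and of GLA cannot be told apart where they overlap.

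LIPA encodes lysosomal acid lipase, which frees cholesterol and fatty acids from lipoprotein lipids. It was at 119, 128, 57.7 and 61.6 CPM and fell by 1.03 on the log2 scale (SE 0.0732, FDR = 9.22e-13). The annotated LIPA locus spans IFIT1, IFIT2 and IFIT3 on the other strand, whose log2 fold changes were 0.64, 1.93 and 0.80. Those changes are opposite in sign to that of LIPA. ARSA, the sulfatase that degrades sulfatide, was at 47.9, 46.3, 30.5 and 34.0 CPM and fell by 0.51 on the log2 scale (FDR = 2.44e-05).

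PSAP encodes prosaposin, the precursor that is cut into the saposins, the activators of several sphingolipid hydrolases. It was at 1532, 1533, 2907 and 2738 CPM, the highest CPM of the 52 genes in every library. Its log2 fold change was 0.88 (SE 0.0589, FDR = 2.34e-13). Per kb of annotated exon PSAP also stood first, with 492 CPM per kb in the controls and 906 CPM per kb with VHL. SMPD1, the acid sphingomyelinase, was at 40.9, 40.9, 50.5 and 50.1 CPM and rose by 0.30 (FDR = 0.0034). That call was lost without the deeper 786-O-Ctrl library (FDR = 0.0587), without the shallower one (FDR = 0.052) and without 786-O-VHL replicate 2 (FDR = 0.0658). ASAH1, the acid ceramidase, was at -0.10 (FDR = 0.286).

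The lysosomal proteases, with the thioesterase PPT1 counted among them, had calls in both directions. Of 9 measured, 2 were higher (22.2%), 3 were lower (33.3%) and 4 did not pass, beside 32.6% higher and 31.9% lower of all genes. The median log2 fold change of the 9 was 0.06. With library totals alone 5 were higher and 2 lower.

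CTSH encodes cathepsin H, an aminopeptidase. It was at 14.2, 12.2, 35.6 and 32.3 CPM, with both 786-O-VHL libraries above both 786-O-Ctrl libraries and a log2 fold change of 1.32 (SE 0.123, FDR = 2.33e-10). CTSD encodes cathepsin D, the main aspartic protease of the lysosome. It was at 524, 547, 807 and 797 CPM and rose by 0.58 on the log2 scale (SE 0.0597, FDR = 1.59e-09). CTSH and CTSD differ widely in level, at 0.956 and 94.0 CPM per kb of annotated exon in 786-O-Ctrl, where the length counts every annotated exon of a gene and so lowers the value of genes with long minor transcripts.

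CTSZ encodes cathepsin Z, a carboxypeptidase. It was at 1038, 999, 550 and 628 CPM, without overlap, and fell by 0.78 on the log2 scale (SE 0.0648, FDR = 2.29e-11). PPT1, which removes palmitate from proteins, was at 131, 127, 82.4 and 80.1 CPM and fell by 0.68 on the log2 scale (SE 0.0685, FDR = 1.23e-09). CTSL, the endopeptidase cathepsin L, fell by 0.25 on the log2 scale (FDR = 0.00223), from 133 and 130 to 118 and 108 CPM. The CTSL call was lost without the deeper 786-O-Ctrl library (-0.23, FDR = 0.0768) and without 786-O-VHL replicate 2 (-0.16, FDR = 0.125). CTSB (0.13), TPP1 (0.08), CTSA (0.06) and CTSC (-0.03) did not pass, though CTSB passed without 786-O-VHL replicate 1 (0.20, FDR = 0.000627). GM2A, LIPA, CTSZ and PPT1 are also in the study's own list of genes lower in both mRNA and protein, which was drawn partly from these libraries and is not independent evidence of their direction.

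**Figure D2:**
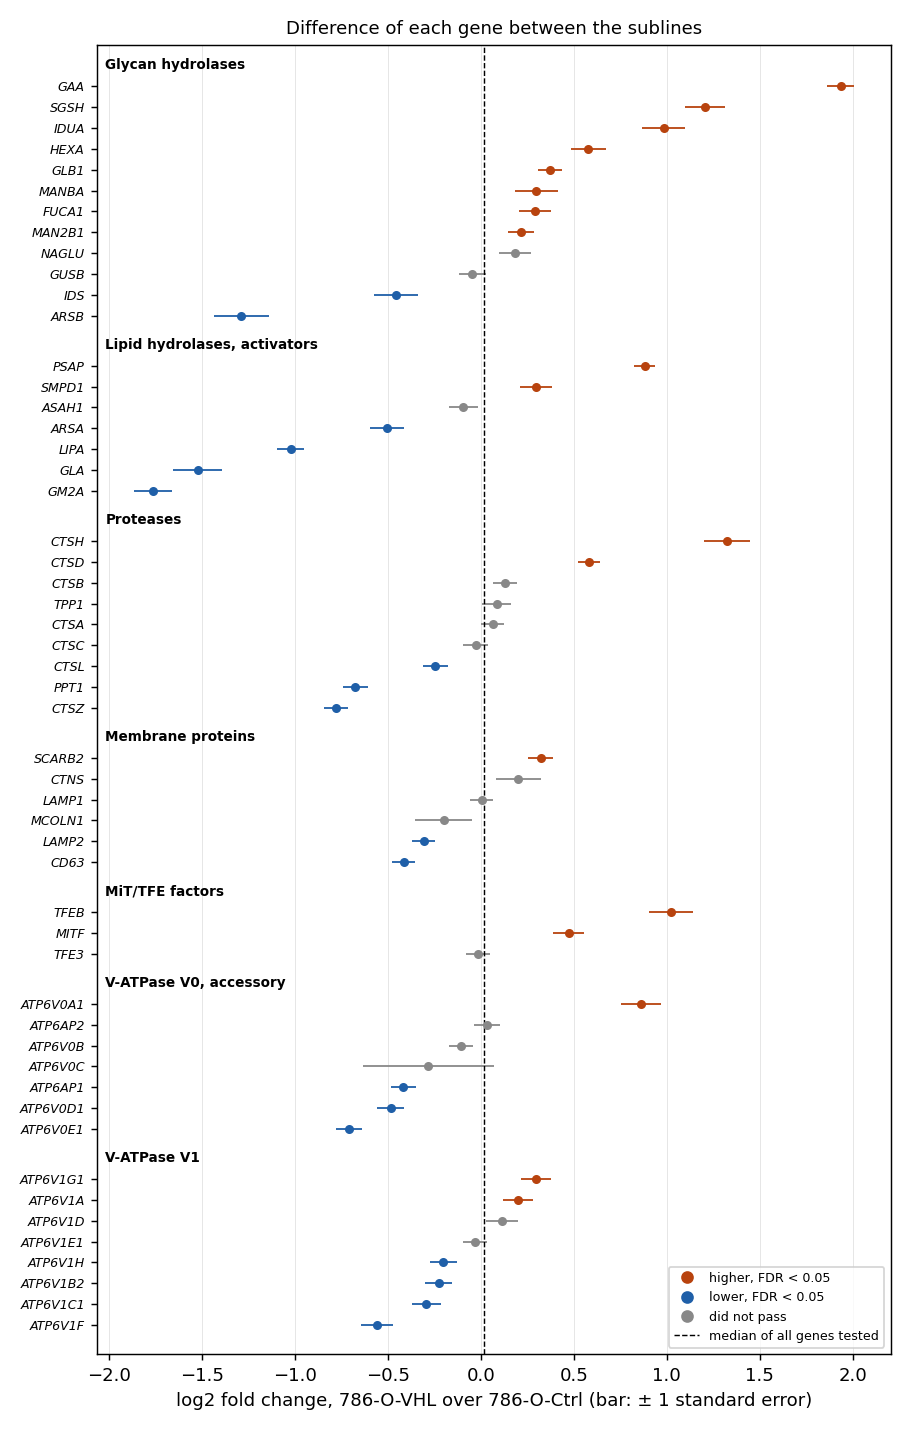
Log2 fold change of each of the 52 genes, 786-O-VHL over 786-O-Ctrl, with bars of 1 standard error and the median of all genes tested as a dashed line. Orange points were higher and blue points lower at an FDR under 0.05, and grey points did not pass. The glycan hydrolases lie mostly right of the line, with 8 higher and 2 lower, and the lipid hydrolases mostly left of it, with 2 higher and 4 lower. The 8 include GAA, whose rise was known beforehand. The roles were assigned with earlier results known, and some enzymes, such as GLA and HEXA, fit either group.

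Proteins of the lysosomal membrane changed by small amounts. Of 6 measured, 1 was higher (16.7%), 2 were lower (33.3%) and 3 did not pass, beside 32.6% higher and 31.9% lower of all genes. The median log2 fold change was -0.10 and turned to 0.03 under library totals alone, with 3 higher and 2 lower.

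LAMP1, a heavily glycosylated protein that lines the lysosome and is used as its marker, was at 357, 353, 356 and 356 CPM. The libraries of both groups overlapped, and the log2 fold change was 0.00 (SE 0.0609, 95% interval -0.12 to 0.13, FDR = 0.969). LAMP2, its relative with a part in chaperone-mediated autophagy, was at 334, 351, 279 and 275 CPM and fell by 0.31 on the log2 scale (SE 0.0625, FDR = 9.27e-05). CD63, a tetraspanin of late endosomes and lysosomes, was at 524, 508, 391 and 383 CPM and fell by 0.42 on the log2 scale (SE 0.061, FDR = 9.59e-07). SCARB2, a heavily glycosylated protein that spans the lysosomal membrane, was at 278, 285, 380 and 332 CPM and rose by 0.32 (SE 0.0663, FDR = 0.000123). The cystine transporter CTNS (0.20, FDR = 0.151) and the calcium channel MCOLN1 (-0.20, FDR = 0.26) did not pass, and without 786-O-VHL replicate 2 MCOLN1 was at -0.41.

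Among the 15 V-ATPase genes, 3 were higher (20%), 7 were lower (46.7%) and 5 did not pass, beside 32.6% higher and 31.9% lower of all genes. The median log2 fold change of the 15 was -0.20. With library totals alone 5 were higher and 4 lower, with a median of -0.07, so the surplus of lower calls depended on the scaling, although DESeq2 (2 higher, 5 lower) and RLE factors (2 higher, 7 lower) kept more lower than higher. Without the deeper 786-O-Ctrl library 2 of the 15 were higher and 4 lower. In the V0 sector and its accessory proteins, 1 of 7 was higher and 3 were lower. In the V1 sector, 2 of 8 were higher and 4 were lower, with a median of -0.12 that turned to 0.02 under library totals alone, where 3 were higher and 1 lower. The V1 counts were 1 higher and 1 lower without the deeper 786-O-Ctrl library, 1 and 2 without the shallower one and 1 and 2 with DESeq2.

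ATP6V0A1 encodes a V0 a subunit, one of the isoforms that place the pump in a given membrane. It was at 19.6, 19.4, 36.98 and 34.9 CPM, with both 786-O-VHL libraries above both 786-O-Ctrl libraries. Its log2 fold change was 0.86 (SE 0.109, FDR = 8.51e-08), the largest increase of the 15. ATP6V0E1, a small V0 subunit, was at 162, 155, 105 and 93.4 CPM and had the largest decrease of the 15, as it fell by 0.71 on the log2 scale (SE 0.0697, FDR = 6.51e-10). ATP6V0D1, the V0 d subunit that links the proton-carrying ring to the central stalk, was at 85.2, 81.3, 58.3 and 59.9 CPM and fell by 0.49 on the log2 scale (FDR = 1.56e-06). ATP6AP1, an accessory protein of pump assembly, was at 170, 166, 125 and 126 CPM and fell by 0.42 on the log2 scale (FDR = 2.47e-06).

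The remaining V0 genes did not pass. ATP6AP2 was at 0.03 and ATP6V0B at -0.11. ATP6V0C, which encodes the proton-binding ring subunit, was at 2.75, 3.59, 5.09 and 1.96 CPM, so that the 786-O-VHL libraries lay on either side of the 786-O-Ctrl libraries. Its log2 fold change was -0.28 (95% interval -1.01 to 0.44), and it was -0.67 without 786-O-VHL replicate 1 and 0.70 without replicate 2. It shares its strand with 3 overlapping annotated genes, so the low level of ATP6V0C is uncertain.

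In V1, ATP6V1F, a subunit of the central stalk, had the largest change. It was at 69.4, 60.7, 43.1 and 44.6 CPM, without overlap, and fell by 0.56 on the log2 scale (SE 0.0851, FDR = 1.67e-06). ATP6V1C1 (-0.29), ATP6V1B2 (-0.23) and ATP6V1H (-0.20) fell by less. ATP6V1G1, a stator subunit, was at 61.2, 60.7, 87.2 and 70.5 CPM and rose by 0.30 (FDR = 0.00205), and was at 0.51 without 786-O-VHL replicate 2. ATP6V1A, the catalytic subunit, was at 54.6, 58.0, 73.3 and 61.3 CPM and rose by 0.20 (FDR = 0.0363). ATP6V1A and ATP6V1B2, whose proteins alternate in the ATP-binding ring, thus had calls in opposite directions. Neither call held in every fit: ATP6V1A was at 0.13 (FDR = 0.133) without 786-O-VHL replicate 1, and it also lost its call without the deeper (0.17, FDR = 0.258) or the shallower (0.26, FDR = 0.0654) 786-O-Ctrl library. ATP6V1B2 lost its call without the deeper (-0.25, FDR = 0.0596) or the shallower (-0.23, FDR = 0.0768) 786-O-Ctrl library, ATP6V1C1 without the deeper one (-0.21, FDR = 0.137), and ATP6V1H without the deeper (-0.18, FDR = 0.20), the shallower (-0.24, FDR = 0.0723) or 786-O-VHL replicate 2 (-0.24, FDR = 0.0802). ATP6V1D (0.11) and ATP6V1E1 (-0.03) did not pass.

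Of the 3 transcription factors that drive lysosomal genes 2 were higher and 1 did not pass, where 32.6% of all genes were higher. TFEB was at 16.6, 14.2, 29.9 and 32.1 CPM, with both 786-O-VHL libraries above both 786-O-Ctrl libraries. Its log2 fold change was 1.02 (SE 0.12, FDR = 2.21e-08). MITF was at 44.2, 45.7, 67.5 and 60.3 CPM and rose by 0.47 (SE 0.0817, FDR = 1.23e-05), over all its isoforms, which the counts do not separate. TFE3 was at 179, 187, 179 and 182 CPM, where the groups overlapped, with a log2 fold change of -0.02 (SE 0.0639, 95% interval -0.15 to 0.11, FDR = 0.823).

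TFE3 was the factor with the highest level per kb of annotated exon in both sublines, at 43.5 CPM per kb without and 42.9 CPM per kb with VHL. MITF was at 6.06 and 8.62 CPM per kb and TFEB at 2.29 and 4.61 CPM per kb. The activity of these proteins depends on where they sit in the cell, which mRNA counts do not measure.

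The genes with a TCACGTGA site had calls in both directions. Of the 6, GAA and ATP6V1G1 rose, ATP6V0D1 fell, and CTSA, LAMP1 and MCOLN1 did not pass, with a median log2 fold change of 0.03. Among the 32 genes whose windows held no such site 11 were higher and 11 lower, with a median of -0.02. The E-box CACGTG was in 9 of the 38 windows (23.7%), against 7.43% of all promoters and 9.91% of those of tested genes, and 3 of those 9 genes were higher and 2 lower. The letters ACGTG were in 15 of the 38 windows (39.5%), against 21.6% of all promoters and 26.3% of those of tested genes. Of those 15 genes 6 were higher and 5 lower, with a median log2 fold change of 0.003. Of the 23 without the letters 7 were higher and 7 lower, with a median of -0.02. A match is only a match of letters, and binding was not measured.

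The summed level of the compartment was carried by a few abundant genes. The 52 genes together made 8047, 7996, 9118 and 8846 CPM, a 786-O-VHL mean that was 12.0% higher. In each library this was 0.765%, 0.766%, 0.957% and 0.924% of all counts, with Wilson 95% intervals from 0.762% to 0.769% in the deeper 786-O-Ctrl library and from 0.946% to 0.969% in 786-O-VHL replicate 1, which cover counting error only. On the TMM scale the higher sum rested on PSAP. Without PSAP, a sum chosen after the values were seen, the other 51 genes made 6514, 6463, 6211 and 6109 CPM, a mean that was 5.07% lower. As shares of all counts, without TMM factors, the same 51 genes made 0.620%, 0.619%, 0.652% and 0.638%, so the sign of that difference depended on the scaling.

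The sums of the role groups lay on both sides of their 786-O-Ctrl levels. The glycan hydrolases summed to 604, 598, 833 and 784 CPM, and without GAA their mean was still 19.2% higher. The lipid group summed to 1903, 1901, 3144 and 2975 CPM, but without PSAP its mean was 35.7% lower, from 369 ± 1.62 to 237 ± 0.281 CPM (SD, n = 2). The proteases summed to 2452, 2430, 2235 and 2297 CPM, and without CTSD their mean was 23.2% lower. As shares of all counts the proteases made 0.233%, 0.233%, 0.235% and 0.240%, so the direction of their sum turned with the scaling, and the membrane proteins (0.145%, 0.147%, 0.151% and 0.144%) overlapped between the groups. The V-ATPase genes summed to 1323, 1289, 1191 and 1137 CPM, a mean that was 10.9% lower. As shares of all counts the V-ATPase genes made 0.126%, 0.124%, 0.125% and 0.119%, values that overlapped between the groups.

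**Figure D3:**
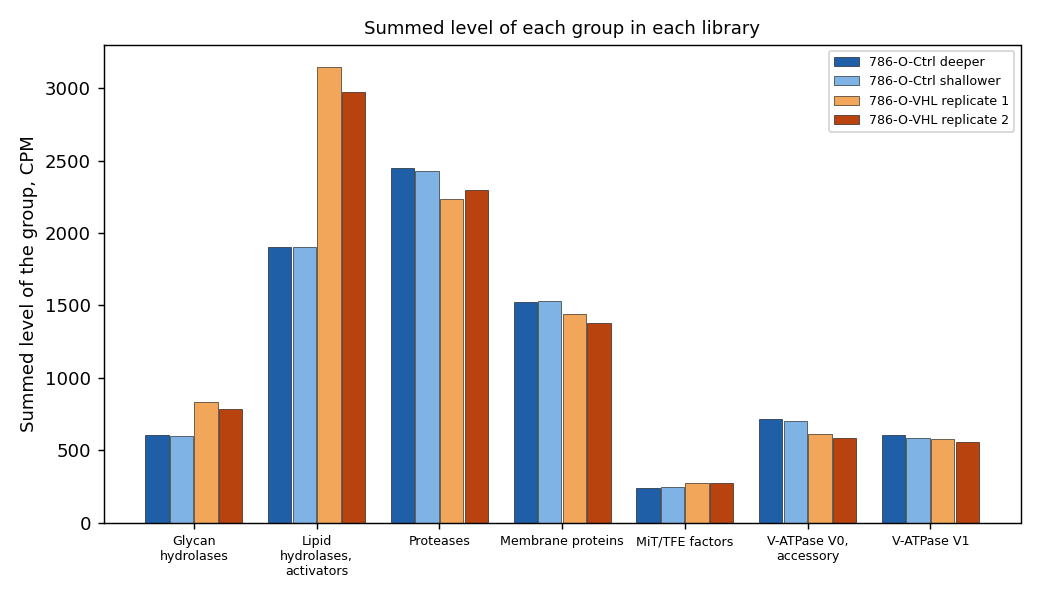
Summed TMM-scaled CPM of each role group in each of the 4 libraries, on an axis that starts at 0, with 1 bar for each library. The lipid group has the largest step, from 1903 and 1901 CPM in the controls to 3144 and 2975 CPM with VHL, and holds PSAP, while the proteases, the membrane proteins and both V-ATPase sectors are somewhat lower in 786-O-VHL on this TMM scale, an order that shares of all counts do not keep for the proteases, the membrane proteins and the V1 sector.

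A wider list of 99 further symbols covered other hydrolases, membrane proteins and V-ATPase isoforms, the delivery route to the lysosome and the control of the MiT/TFE factors. Of these, 90 were in the table and 88 were tested, since HYAL1 and ATP6V0D2 were under the filter on low counts. In this list 21 were higher and 36 lower at an FDR under 0.05, and 31 did not pass. That is 23.9% higher and 40.9% lower, beside 32.6% and 31.9% of all genes. The median log2 fold change was -0.10, and under library totals alone it was 0.04 with 26 higher and 28 lower.

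Among the other hydrolases 3 were higher and 18 lower of 32 tested, with a median of -0.39 (4 higher, 16 lower and -0.26 under library totals alone). The shares were 9.38% higher and 56.25% lower, beside 32.6% and 31.9% of all genes. RNASET2, the lysosomal acid ribonuclease, was at 222, 218, 60.7 and 48.1 CPM, without overlap, and fell by 2.10 on the log2 scale (SE 0.0803, FDR = 9.95e-19). CTSS, the cathepsin of antigen-presenting cells, was at 14.6, 14.6, 4.07 and 5.46 CPM and fell by 1.49 on the log2 scale (FDR = 5.4e-08). CTSW, a cathepsin of cytotoxic lymphocytes, was at 8.69, 7.44, 0.678 and 0.594 CPM and fell by 3.72 on the log2 scale (FDR = 2.45e-10), with 2 and 10 counts in 786-O-VHL. In the same libraries the sum of the macrophage markers, most of it CSF1R, was also lower in 786-O-VHL, as given above, and its part in the lower cathepsins was not tested. DNASE2 (0.55), SIAE (0.50) and LGMN (0.22) were the 3 that rose.

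Genes that tag and deliver hydrolases gave 4 higher and 8 lower of 14, with a median of -0.34 (5 higher, 6 lower and -0.21 under library totals alone). The shares were 28.6% higher and 57.1% lower, beside 32.6% and 31.9% of all genes. Without the deeper 786-O-Ctrl library 2 were higher and 6 lower, with a median of -0.26. GNPTAB, the catalytic part of the phosphotransferase that makes the mannose-6-phosphate tag, was at 61.5, 60.9, 29.9 and 30.5 CPM. It fell by 1.01 on the log2 scale (SE 0.0872, FDR = 4.79e-11). GNPTG, another subunit of the same enzyme, was at 46.8, 44.2, 57.3 and 58.7 CPM and rose by 0.35 (FDR = 0.00038).

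SUMF1, the enzyme that activates all sulfatases, was at 49.7, 51.9, 34.9 and 28.3 CPM and fell by 0.77 on the log2 scale (FDR = 8.23e-08). AP1M1, a subunit of the AP-1 adaptor, fell by 0.73 on the log2 scale (FDR = 1.05e-09), and the sorting receptor SORT1 (0.59) and the adaptor GGA1 (0.27) rose. Of the receptors for the tag, M6PR fell by 0.26 on the log2 scale (FDR = 0.00358) and IGF2R did not pass (0.09, FDR = 0.206).

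**Figure D4:**
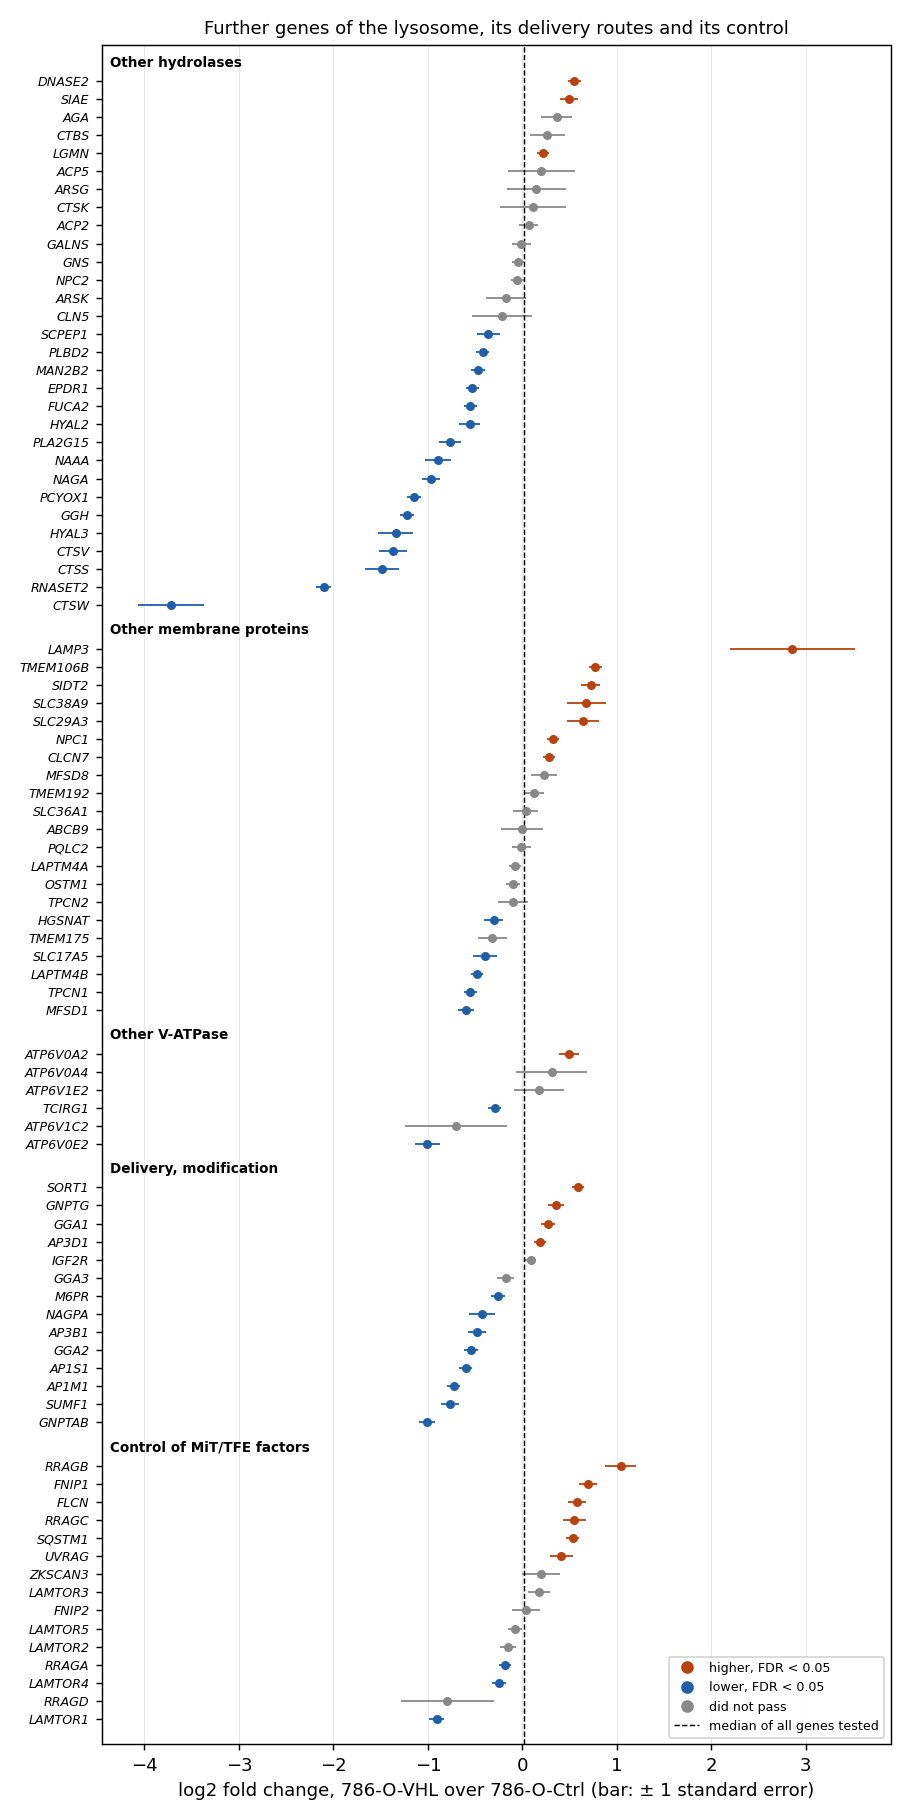
Log2 fold change, 786-O-VHL over 786-O-Ctrl, of the further genes tested and reported here, with bars of 1 standard error, colours for calls at an FDR under 0.05 and the median of all genes tested as a dashed line. The other hydrolases lie mostly left of the line, down to -3.72 for CTSW.

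The other membrane proteins were more even, with 7 higher, 5 lower and 9 that did not pass, and a median of 0.00 (9 higher, 3 lower and 0.13 under library totals alone). The shares were 33.3% higher and 23.8% lower, beside 32.6% and 31.9% of all genes. Without 786-O-VHL replicate 2 only 3 were higher and 4 lower, with a median of -0.07, and without the deeper 786-O-Ctrl library 6 were higher and 3 lower. TMEM106B, a membrane protein of late endosomes and lysosomes, was at 59.2, 61.4, 104 and 102 CPM and rose by 0.77 (SE 0.0697, FDR = 1.26e-10). SIDT2 (0.72) also rose. LAMP3 had the highest log2 fold change, 2.86 (FDR = 0.000422), from 2 and 4 counts in the controls and 4 and 21 with VHL, so its size is poorly known. MFSD1 fell by 0.60 on the log2 scale, TPCN1 by 0.55 and LAPTM4B by 0.48. Of the other V-ATPase genes ATP6V0A2, an a subunit isoform found in the Golgi and endosomes, rose by 0.49, while ATP6V0E2 fell by 1.01 on the log2 scale and TCIRG1, the a subunit isoform of osteoclasts, by 0.29. Without 786-O-VHL replicate 2 none of these isoforms was higher and 2 were lower.

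Among 15 genes that control the MiT/TFE factors or act beside them, 6 were higher and 3 lower, with a median of 0.17 (7 higher, 1 lower and 0.31 under library totals alone). The shares were 40% higher and 20% lower, beside 32.6% and 31.9% of all genes. The median turned to -0.03 without the deeper 786-O-Ctrl library, with 6 higher and 1 lower, and also to -0.03 without 786-O-VHL replicate 2, with 5 higher and 2 lower. FLCN and FNIP1 encode the folliculin complex, through which mTORC1 is directed to TFEB and TFE3. FLCN was at 32.2, 31.5, 48.2 and 47.4 CPM and rose by 0.58 (FDR = 3.15e-06). FNIP1 rose by 0.70 (FDR = 2.88e-07), from 32.1 and 28.6 CPM to 46.1 and 50.7 CPM. The Rag GTPase gene RRAGB was at 7.41, 7.58, 15.6 and 15.3 CPM and rose by 1.04 (FDR = 2.89e-06).

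LAMTOR1, which anchors the Rag GTPases to the lysosomal membrane, was at 89.8, 79.95, 46.8 and 45.1 CPM. It fell by 0.91 on the log2 scale (SE 0.0807, FDR = 9.54e-11). LAMTOR4 fell by 0.25 and RRAGA by 0.18 on the log2 scale. Genes of the same lysosomal signalling platform thus moved in both directions.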

How the data were processed

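The authors deposited 1 table of raw read counts per gene, with whole numbers for 12912 genes in 2 786-O-Ctrl and 2 786-O-VHL libraries. Reads were aligned to hg19, the submitters' processing notes name CASAVA and STAR, and no source used here gives the counting tool, the annotation or the use of strand. The table gives both 786-O-Ctrl columns the same replicate number, so these libraries are called deeper and shallower, and numbers could not pair the samples.

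The counts were fitted as deposited with edgeR 4.0.16 in R 4.3.3: filterByExpr at a minimum count of 10 (12335 genes tested, 577 removed), TMM factors from 0.951 to 1.05, and the quasi-likelihood test with Benjamini-Hochberg adjustment over all genes tested, called at an FDR of 0.05. The SE is the log2 fold change divided by the square root of F, and the biological coefficient of variation was 4.31%. An exact permutation test of 2 against 2 libraries cannot go below p = 0.333 and was not used. A value of 3 counts corresponded to 1.02 CPM in 786-O-VHL replicate 1 and to 0.142 to 0.199 CPM in the others. On simulated counts with 200 changed genes, the same steps on 12335 genes recovered 95 of 100 genes changed 2-fold and 96 of 100 changed 4-fold, with 3 false calls. The simulation gave every gene the same coefficient of variation and split its changes evenly between the directions. In the data 32.6% of genes were called higher and 31.9% lower, so the simulation does not measure the rate of false calls or the effect of scaling here.

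The members and lists were chosen with earlier results of these data known. Named genes were GAA, TFEB, TFE3 and MITF and, in each group, up to 3 genes per direction with the largest called change, and further genes are named beside them with their values, among them M6PR and IGF2R, chosen after their values were seen. Some genes of the wider list were also listed under newer names, and some are counted but not reported here by name. Gene positions and exon lengths are from GENCODE v44lift37 (GRCh37), in which 12749 identifiers were found, and promoter windows from RefSeq (GRCh38.p14). Alternatives were DESeq2 1.42.0, limma-voom (limma 3.58.1), other scalings, filters and thresholds, thinned counts, each library left out and a replicate block. Sums without PSAP, GAA or CTSD and shares of counts were added after seeing the data.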

Additional observations from a re-analysis of the deposited data

How the results depend on the processing

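No member called at an FDR under 0.05 changed sign in any of 13 other fits, and 27 of the 36 called members (13 higher, 14 lower) kept their call in all of them. The members gave 13 higher and 16 lower with DESeq2, 20 and 18 with limma-voom, 17 and 18 with RLE factors, 14 and 15 with counts thinned to the shallowest library, and 16 and 17 at an FDR under 0.01. Without a filter, or with at least 10 counts in every library, they gave 18 and 18. Without each library in turn the members gave 14 to 18 higher and 14 to 18 lower, with a median from -0.02 to 0.04, the wider list 14 to 24 higher and 29 to 37 lower, and all genes 2902 to 4127 higher and 3125 to 4082 lower. With library totals alone the members' median was 0.126.

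No shared number pairs the samples, so both possible pairings were fitted as a replicate block: each gave 18 members higher and 18 lower, beside 3824 and 3778 or 3882 and 3825 of all genes.

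Of the 16 members that did not pass, 11 changed sign in some fit. Under library totals alone GUSB was 0.087, ASAH1 0.037, CTSC 0.10, TFE3 0.12, ATP6V0B 0.025 and ATP6V1E1 0.10 on the log2 scale. With thinned counts GUSB was 0.071, NAGLU -0.0043, CTSC 0.070, LAMP1 -0.0045, ATP6V0C 0.066 and ATP6V1D -0.020. LAMP1 was -0.0128 with DESeq2, -0.0127 with RLE factors and -0.0089 without a filter. Leaving out 1 library gave GUSB -0.12 to 0.088, NAGLU -0.11 to 0.27, ASAH1 -0.15 to 0.043, LAMP1 -0.012 to 0.0079, TFE3 -0.057 to 0.0071, ATP6V0C -0.67 to 0.70, ATP6AP2 -0.043 to 0.17 and ATP6V1E1 -0.067 to 0.033. The causes were not tested. The depth of 786-O-VHL replicate 1, where 3 counts made 1.02 CPM, limits the low genes.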

Other observations

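GAA and SGSH both rose and lie close together on chromosome 17. Within 1000000 bases of GAA (GRCh37) 16 other genes were tested, of which 7 were higher and 6 lower at an FDR under 0.05 in edgeR's quasi-likelihood test, with a median log2 fold change of 0.11 and a range from -1.38 for RBFOX3 to 2.37 for SLC26A11. Over all genes tested 32.6% were higher and 31.9% lower. Of the genes nearest to GAA, CCDC40 was at 0.46 (FDR = 0.0948) and EIF4A3 fell by 0.50 on the log2 scale (FDR = 1.99e-07).

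Of the 6 lysosomal genes on chromosome X, IDS, GLA, LAMP2 and ATP6AP1 were lower, none was higher, and TFE3 and ATP6AP2 did not pass. Over all 413 genes tested on chromosome X 28.3% were higher and 38.7% lower, with a median log2 fold change of -0.10.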
